A study of Mus musculus with 12 samples.

Results

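The 10 genes described here encode chemokine ligands, and their messenger RNA was followed in macrophages exposed to activin A. They are *Ccl2*, *Ccl3*, *Ccl4*, *Ccl6*, *Ccl7*, *Ccl9*, *Ccl12*, *Cxcl12*, *Cxcl14* and *Cxcl16*, chosen by gene symbol, and they make up 10 of the 18376 genes listed. The 12 RNA sequencing libraries came from bone marrow-derived macrophages (BMDMs) that were differentiated in culture from the marrow of adult wild-type C57BL6/J mice. All cells, controls included, were kept in 50 ng/ml M-CSF, the growth factor that drives marrow cells to become macrophages, and the treatments lasted 6 days. The control group (CTRL) received nothing further, the Act group received activin A at 50 ng/ml, the FST group received FST288 at 250 ng/ml, and the Act+FST group received both, with 3 libraries in each group. FST288 is a follistatin isoform, a secreted binding protein that holds activin A away from its receptors. The question put by the design was what activin A does to the macrophage transcriptome and whether FST288 prevents it.

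Chemokines are small secreted proteins that guide leukocytes along a concentration gradient by engaging receptors of the G protein-coupled family. They are sorted by the first cysteines of the mature protein, which are adjacent in CC chemokines and separated by a single residue in CXC chemokines. Macrophages are a main source of the CC ligands that call monocytes out of the blood through CCR2 and of further CC ligands that attract monocytes, macrophages and T cells. Among the CXC ligands, CXCL12 retains haematopoietic cells through CXCR4, and CXCL14 is a ligand found mostly in healthy epithelia. CXCL16 binds CXCR6 and is made as a membrane-anchored protein that can be shed.

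The cysteine arrangement can be read in the coding strand of each gene. The following stretches are from the mouse build GRCm38 with GENCODE M21 gene models, are written 5′ to 3′ on the strand of the gene, and carry the codons of the first cysteines after the signal sequence in capitals. They are shown for the CCR2 ligands and the CXC ligands.

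Ccl2: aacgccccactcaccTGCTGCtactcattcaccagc
Ccl7: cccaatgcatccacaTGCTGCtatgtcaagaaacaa
Ccl12: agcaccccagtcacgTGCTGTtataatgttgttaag
Cxcl12: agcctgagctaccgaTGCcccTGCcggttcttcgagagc
Cxcl14: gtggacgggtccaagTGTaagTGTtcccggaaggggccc
Cxcl16: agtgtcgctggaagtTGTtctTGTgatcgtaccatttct

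The capitals are contiguous in *Ccl2* (chr11:82036491-82036526, plus strand), *Ccl7* (chr11:82046523-82046558, plus strand) and *Ccl12* (chr11:82102619-82102654, plus strand). They are interrupted by 1 codon in *Cxcl12* (chr6:117171493-117171531, plus strand), *Cxcl16* (chr11:70459112-70459150, minus strand) and *Cxcl14*. The *Cxcl14* stretch lies within chr13:56295900-56296116 on the minus strand and is joined across an intron. The coding sequences of these genes run from 97 codons in *Ccl7* to 246 in *Cxcl16*, whose messenger also encodes the stalk and membrane anchor.

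Values are the deposited normalized counts, which are read counts rescaled for each library and then rounded. They summed to between 5643708 and 5955400 per library. Group differences come from limma, fitted to log2(normalized count + 1) of 14318 genes whose mean reached 5, all 10 ligands among them. A gene was said to rise or fall where the p-value adjusted by Benjamini-Hochberg was at most 0.05. Because of the added count, fold changes of low genes are understated. Those of high genes may be understated too, since the highest mean in the table was 0.883 normalized counts per exonic base (*Psap*). *Pmepa1*, a feedback gene of activin and TGF-β signaling, was measured at 14, 50 and 9 in CTRL, 756, 792 and 871 in Act, 32, 21 and 10 in Act+FST, and 5, 9 and 5 in FST, so the response followed the labels. The labels do not tie the replicates to separate cultures or mice, and p-values therefore measure the spread between these libraries, which may be technical. In bulk RNA, fewer cells of a type and less RNA per cell cannot be told apart.

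With activin A, the CCR2 ligands *Ccl2* and *Ccl7* were 4.17-fold and 4.38-fold lower and *Cxcl14* was 11.2-fold higher than in the controls, and with FST288 added no ligand passed the test against the controls. Of the 10 ligands, 6 fell and 2 rose in Act versus CTRL, while *Ccl9* and *Ccl12* did not pass the test. Among all genes tested, 20.2% were called in this comparison, 9.97% lower and 10.3% higher. The groups did not overlap for 8 of the 10 ligands, against 35.7% of all genes. The change reached 2-fold for *Ccl2*, *Ccl7*, *Cxcl12* and *Cxcl14*, against 5.66% of all genes. The median log2 fold change over the 10 ligands was -0.43 and that over all genes tested was 0.0036. The median size of the change, regardless of sign, was 0.69 for the ligands and 0.136 for all genes. For the 13 other chemokine ligands tested it was 0.25. The 10 ligands were chosen with earlier results of these data known, so these comparisons with all genes are not an independent test.

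**Figure D1:**
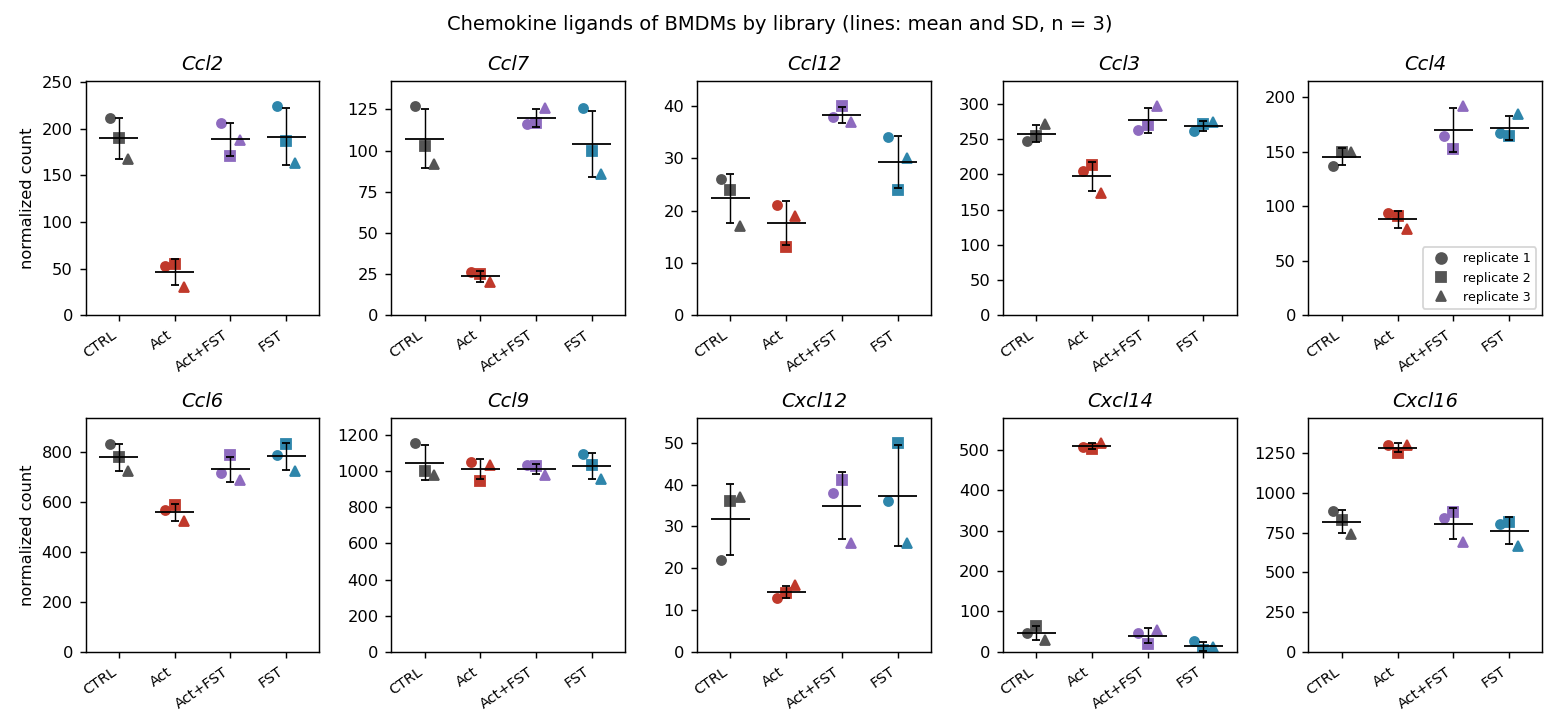
Normalized counts (y axis, linear and starting at 0) of the 10 chemokine ligands in each of the 12 BMDM libraries by group (x axis), with the mean and SD of 3 libraries as lines. Marker shapes give the replicate number. *Cxcl14* lies between 502 and 517 in Act and at or below 63 in every other library, and *Ccl2* and *Ccl7* are lowest in all 3 Act libraries.

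*Ccl2*, the main monocyte attractant acting on CCR2, stood at 211, 190 and 167 normalized counts in the CTRL libraries, 53, 55 and 30 in Act, 206, 171 and 188 in Act+FST, and 224, 187 and 163 in FST. All 3 Act libraries were far below the other 9, and the other 3 groups overlapped. The mean fell from 189 ± 22.0 in CTRL to 46.0 ± 13.9 in Act (SD, n = 3 libraries each). The log2 fold change was -2.06 (SE 0.20, adjusted p = 1.80e-05 by limma), which is 4.17-fold lower, with a 95% interval from -2.49 to -1.63. *Ccl7*, a ligand of CCR2 that also binds CCR1 and CCR3, had 127, 103 and 92 in CTRL, 26, 25 and 20 in Act, 116, 117 and 126 in Act+FST, and 126, 100 and 86 in FST. It showed the same separation, with Act alone low. In Act versus CTRL its log2 fold change reached -2.13 (SE 0.16, adjusted p = 3.93e-06), which is 4.38-fold lower.

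*Ccl12*, a further CCR2 ligand of the mouse, was less abundant, at 26, 24 and 17 in CTRL, 21, 13 and 19 in Act, 38, 40 and 37 in Act+FST, and 34, 24 and 30 in FST. CTRL and Act overlapped, and the Act+FST libraries were above those of every other group. In Act versus CTRL the log2 fold change was -0.33 (SE 0.23, adjusted p = 0.376 by limma), with a 95% interval from -0.83 to 0.17. *Ccl12* differed between Act+FST and CTRL by 0.77 (SE 0.23), with no overlap between the groups and an unadjusted p of 0.00544 that became 0.749 after adjustment. The summed normalized counts of *Ccl2*, *Ccl7* and *Ccl12* were 364, 317 and 276 in CTRL and 100, 93 and 69 in Act. In Act+FST they were 360, 328 and 351, and in FST 384, 311 and 279. The Act mean was 0.274 of the CTRL mean, and the exact permutation test gave p = 0.1 (two-sided), the smallest value that 3 against 3 libraries allow.

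The other CC ligands, *Ccl3*, *Ccl4*, *Ccl6* and *Ccl9*, changed less, and 3 of 4 fell. *Ccl4*, also known as MIP-1β, an attractant of monocytes and T cells, had 137, 150 and 150 in CTRL, 94, 91 and 79 in Act, 165, 153 and 192 in Act+FST, and 167, 165 and 185 in FST. The Act values were the lowest, and those of both FST288 groups lay above all CTRL values. *Ccl4* fell by 0.72 on the log2 scale in Act versus CTRL (SE 0.10, adjusted p = 0.000326 by limma). *Ccl3*, also known as MIP-1α, which acts on CCR1 among other receptors, had 247, 255 and 271 in CTRL, 205, 213 and 174 in Act, 263, 270 and 297 in Act+FST, and 261, 271 and 274 in FST. The Act libraries again lay below the rest, and the log2 fold change was -0.39 (SE 0.08, adjusted p = 0.00389). *Ccl6*, a CCR1 ligand of rodents, had 833, 779 and 723 in CTRL, 566, 586 and 522 in Act, 715, 786 and 688 in Act+FST, and 788, 833 and 725 in FST. It fell by 0.48 in Act (SE 0.07, adjusted p = 0.000455), with no overlap between Act and any other group.

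*Ccl9*, the other rodent CCR1 ligand, lies next to *Ccl6* in the genome and was the only ligand called in no comparison with Act. Its values were 1156, 1003 and 978 in CTRL, 1051, 947 and 1032 in Act, 1032, 1027 and 980 in Act+FST, and 1095, 1031 and 955 in FST. All 4 groups overlapped. In Act versus CTRL the log2 fold change was -0.05 (SE 0.07, adjusted p = 0.697 by limma), and the 95% interval, from -0.20 to 0.10, did not reach the change of *Ccl6* or *Ccl3*. Summed over *Ccl3*, *Ccl4*, *Ccl6* and *Ccl9*, the normalized counts were 2227 ± 130 in CTRL and 1853 ± 56.3 in Act (SD, n = 3), a ratio of 0.832 (exact permutation test, p = 0.1).

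The 3 CXC ligands moved in different directions. *Cxcl14* had 48, 63 and 29 in CTRL, 507, 502 and 517 in Act, 46, 20 and 55 in Act+FST, and 26, 4 and 12 in FST. The Act libraries lay close together and far above all others, while the low groups varied several-fold among themselves. In Act versus CTRL the log2 fold change was 3.49 (SE 0.52, adjusted p = 0.000466 by limma), or 11.2-fold, with a 95% interval from 2.36 to 4.61. *Cxcl16*, which also serves macrophages as a scavenger receptor for oxidized lipoprotein, had 883, 831 and 740 in CTRL, 1302, 1251 and 1302 in Act, 841, 881 and 694 in Act+FST, and 803, 819 and 665 in FST. The Act libraries were above all others, and *Cxcl16* rose 1.57-fold (log2 0.65, SE 0.10, adjusted p = 0.000461).

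*Cxcl12*, the CXCR4 ligand, was low, at 22, 36 and 37 in CTRL, 13, 14 and 16 in Act, 38, 41 and 26 in Act+FST, and 36, 50 and 26 in FST. The Act libraries were the lowest and did not overlap with any other group. It fell by 1.06 on the log2 scale (SE 0.28, adjusted p = 0.0174 by limma). This call was lost without CTRL replicate 2, CTRL replicate 3 or Act replicate 1, where the adjusted p reached at most 0.0731.

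Activin A alone was next set against activin A with FST288. In Act versus Act+FST, which shares the Act libraries with the comparison above, 7 ligands were lower in Act and 2 were higher, and only *Ccl9* of the 10 was not called. Among all genes, 21.3% were called, 10.2% lower and 11.1% higher. The groups did not overlap for 9 of the 10, against 34.1% of all genes, and 5 differed at least 2-fold, against 5.83%. The log2 fold changes were -2.06 for *Ccl2* (adjusted p = 1.94e-05), -2.30 for *Ccl7* (2.39e-06), and 3.74 for *Cxcl14* (0.000278), with adjusted p from limma. *Ccl12* was called in this comparison and not in Act versus CTRL, with a log2 fold change of -1.10 (SE 0.23, adjusted p = 0.00446). *Ccl12* stood at 38.3 ± 1.53 in Act+FST and 22.3 ± 4.73 in CTRL (SD, n = 3), and the difference between these groups did not pass the test. *Cxcl12* had a log2 fold change of -1.21 (adjusted p = 0.00766), *Ccl4* -0.94 (4.43e-05), *Ccl3* -0.49 (0.000791), *Ccl6* -0.39 (0.00196), and *Cxcl16* 0.68 (0.000348).

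**Figure D2:**
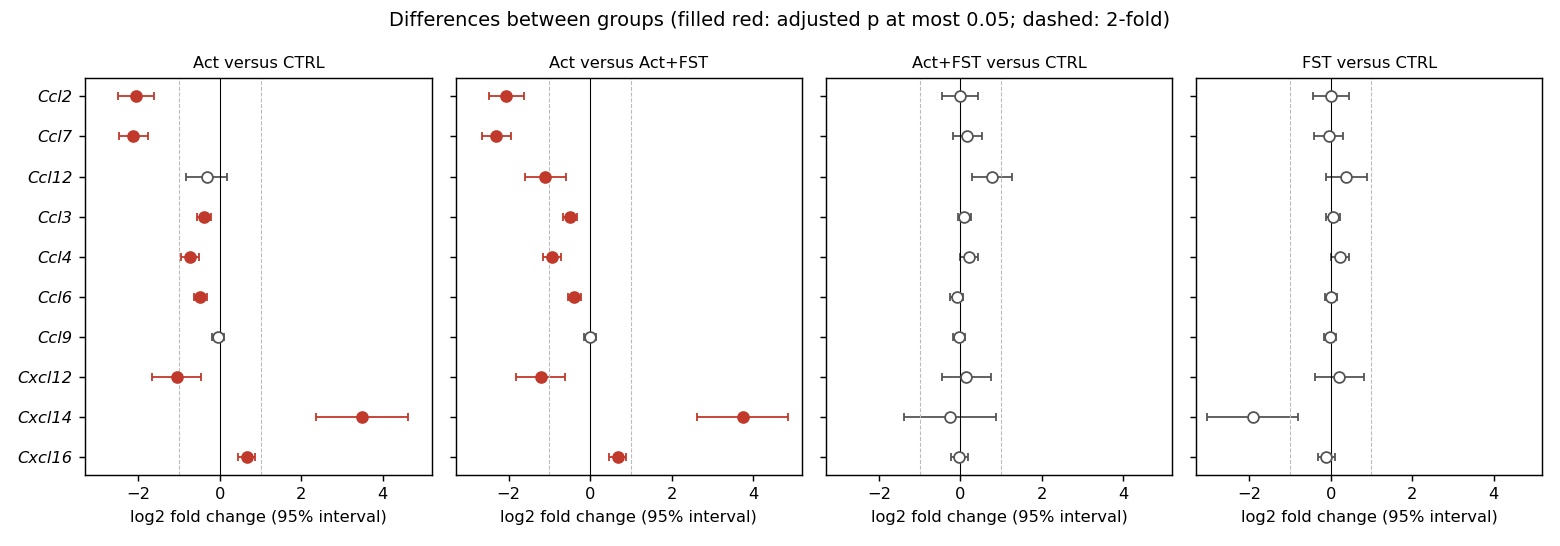
Log2 fold change (x axis) with its 95% interval for each of the 10 ligands (y axis) in 4 comparisons, from limma on log2(normalized count + 1). Filled red points have an adjusted p of at most 0.05, and dashed lines mark a 2-fold change. The comparisons with Act hold 8 and 9 filled points, and those of Act+FST and FST against CTRL hold none.

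Against CTRL, limma called 0 of the 10 ligands in Act+FST and 0 in FST. No gene of the table was called in either comparison (0%), while 655 and 299 of the 14318 genes had an unadjusted p under 0.05. With the replicate number as a block, 80 genes were called in Act+FST versus CTRL, and the count of ligands among them was 0. The groups did not overlap for *Ccl4* and *Ccl12* in Act+FST versus CTRL, against 6.68% of all genes, and for *Ccl4* and *Cxcl14* in FST versus CTRL, against 5.55%. *Cxcl14* was lower in every FST library than in any CTRL library. Its log2 fold change was -1.91 (SE 0.52, 95% interval from -3.04 to -0.79), with an unadjusted p of 0.00290 and an adjusted p of 1 by limma, and it was -2.50 without FST replicate 1 and -1.28 without FST replicate 2. *Ccl4* was higher by 0.22 in Act+FST and by 0.24 in FST than in CTRL (SE 0.10 each, adjusted p = 1 for both by limma). For *Ccl2*, the 95% interval of Act+FST versus CTRL ran from -0.44 to 0.43, and that of FST versus CTRL from -0.42 to 0.44. A change of the 4-fold size seen with activin A alone lies outside both intervals.

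Whether the activin A difference itself depended on FST288 was tested as an interaction, that is, Act versus CTRL minus Act+FST versus FST. It was called for 6 of the 10 ligands, against 6.74% of all genes. *Ccl2* fell by 2.06 without FST288 and differed by -0.01 with it, and the interaction was -2.05 (SE 0.28, adjusted p = 0.00119 by limma). *Ccl7* gave -2.13 without and 0.22 with FST288, an interaction of -2.35 (SE 0.23, adjusted p = 0.000184). The interaction was smaller for *Ccl4* (-0.70, adjusted p = 0.0123), *Ccl3* (-0.43, 0.0377), *Ccl6* (-0.38, 0.0409), and *Cxcl16* (0.58, 0.0257). *Cxcl14* was not called, although its difference was 3.49 without FST288 and 1.66 with it. The difference with FST288 (SE 0.52) was itself not called. It set 46, 20 and 55 in Act+FST against 26, 4 and 12 in FST, which overlapped. The interaction of *Cxcl14* was 1.83 (SE 0.73, adjusted p = 0.176), and it was called without FST replicate 2 (adjusted p = 0.0332), the library with 4 counts. The interaction was also not called for *Cxcl12* (-0.99, adjusted p = 0.171) and *Ccl12* (-0.71, 0.247). The count fell to 3, with *Ccl3*, *Ccl6* and *Cxcl16* lost, without Act replicate 1, Act replicate 3 or FST replicate 1.

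**Figure D3:**
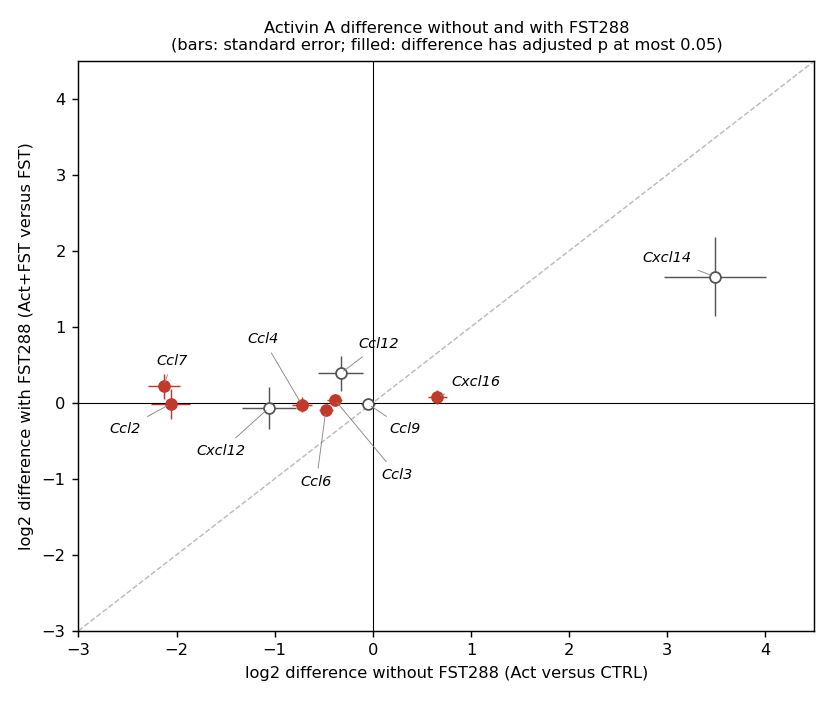
Log2 difference made by activin A without FST288 (x axis, Act versus CTRL) and with FST288 (y axis, Act+FST versus FST) for the 10 ligands, with standard errors. Filled red points have an adjusted p of at most 0.05 for the difference between the axes, and the dashed line marks equal differences. *Ccl2* and *Ccl7* lie at -2.06 and -2.13 on the x axis and near 0 on the y axis, and *Cxcl14* lies at 3.49 and 1.66.

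Compared per kilobase of exon, which puts genes of different length on one scale, the order of the ligands changed with activin A. No gene of the table had a mean above 0.883 normalized counts per exonic base. If reads sharing a start position were collapsed, levels, shares and sums of high ligands are understated, which was not tested. In CTRL, *Ccl6* was highest with 434 ± 30.6 normalized counts per kilobase (SD, n = 3). *Ccl9* (343 ± 31.6) and *Ccl3* (336 ± 16.0) followed and overlapped each other. Next came *Cxcl16* (271 ± 24.0), *Ccl4* (221 ± 11.4), and the overlapping pair *Ccl2* (166 ± 19.3) and *Ccl7* (134 ± 22.3). *Ccl12* (41.6 ± 8.80) and *Cxcl14* (25.5 ± 9.33) overlapped as well, and *Cxcl12* was lowest with 3.87 ± 1.03. In Act, *Cxcl16* came first with 425 ± 9.75 per kilobase, and *Cxcl14* moved from the ninth to the fourth place with 278 ± 4.18, overlapping *Ccl3* at 258 ± 26.9. *Ccl2* (40.4 ± 12.2), *Ccl12* (32.9 ± 7.75), and *Ccl7* (29.5 ± 4.01) formed a low group in which neighbors overlapped. In Act+FST and FST the order differed from that in CTRL in the placing of *Ccl3* above *Ccl9*, and in FST also in that of *Ccl4* above *Cxcl16*, with overlapping libraries for *Ccl3* and *Ccl9* in FST and for *Ccl4* and *Cxcl16* in both. When the longest transcript replaced the union of exons, *Ccl6* stood above *Ccl9* in Act and *Cxcl16* above *Ccl4* in FST.

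As a share of the 10 ligands on the per-kilobase scale, *Cxcl14* went from 1.28% in CTRL (range over libraries 0.852% to 1.74%) to 15.1% in Act (14.6% to 15.9%). *Cxcl16* went from 13.7% to 23.1%. *Ccl2* went from 8.40% to 2.18%, *Ccl7* from 6.75% to 1.60%, and *Ccl6* from 21.9% to 16.9%. The share of *Ccl9* was 17.4% in CTRL and 18.0% in Act, with overlapping libraries. Added together, the 10 ligands reached 3443 ± 243 normalized counts in CTRL and 3749 ± 77.7 in Act (SD, n = 3), a ratio of 1.09 (exact permutation test, p = 0.1). On the per-kilobase scale the sums were 1976 ± 112 and 1842 ± 60.0, a ratio of 0.932 (exact permutation test, p = 0.2), so the direction of the total depended on the scale. The CXC sum was 896 ± 79.1 normalized counts in CTRL and 1808 ± 36.1 in Act (ratio 2.02, exact permutation test, p = 0.1).

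**Figure D4:**
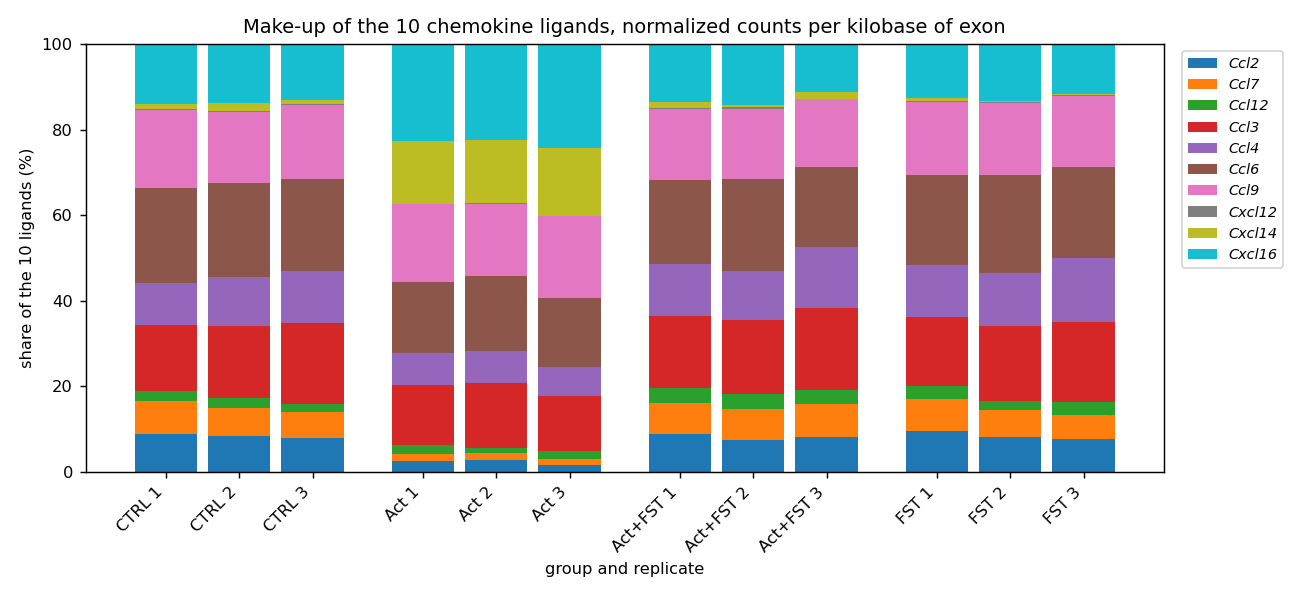
Share of each ligand (y axis, percent) in the summed normalized counts per kilobase of exon of the 10 ligands, for each of the 12 libraries (x axis), as stacked bars that add to 100. The *Cxcl14* band takes 14.6% to 15.9% in the Act libraries and at most 1.74% elsewhere, and the *Ccl2* and *Ccl7* bands are thinnest in Act.

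The CC ligands lie in 2 groups on chromosome 11, and each group holds ligands that fell and 1 that did not pass the test in Act versus CTRL. *Ccl2* (chr11:82035571-82037453, plus strand) and *Ccl7* (chr11:82045712-82047525, plus strand) are 8258 bases apart, and *Ccl12* (chr11:82101845-82103400, plus strand) follows after 54319 bases. The other group starts 1469518 bases further on, with *Ccl9* (chr11:83572919-83578636, minus strand), *Ccl6* (chr11:83587882-83593087, minus strand), *Ccl3* (chr11:83647844-83649355, minus strand), and *Ccl4* (chr11:83662584-83664683, plus strand). *Ccl9* and *Ccl6* are 9245 bases apart, yet *Ccl6* fell and *Ccl9* was not called. *Cxcl16* is on the same chromosome (chr11:70453983-70459984, minus strand), *Cxcl12* is at chr6:117168535-117181367 on the plus strand, and *Cxcl14* is at chr13:56288643-56296551 on the minus strand.

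Despite the likeness of these genes, none shared a run of 75 exonic bases with another gene except *Cxcl16*. Of the exonic bases of *Cxcl16*, 552 (18.3%) overlap *Zmynd15* on the opposite strand. *Zmynd15* counted 267, 323 and 268 in CTRL and 696, 713 and 780 in Act, and it rose with a log2 fold change of 1.35 (adjusted p = 1.28e-05 by limma). The kit is stranded, and the paper states that reads falling on several genes were left out of the counts. The strand setting of the counting was not given in the sources used here. The part of *Zmynd15* reads in the *Cxcl16* values was not tested.

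RefSeq promoter sequences of GRCm38.p6 were at hand for 6 of the 10 ligands and were searched over the 250 bases before the start. They are shown for *Cxcl14*, which changed most, and for *Ccl9*, whose values overlapped in all groups. Capitals mark motif matches.

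Cxcl14: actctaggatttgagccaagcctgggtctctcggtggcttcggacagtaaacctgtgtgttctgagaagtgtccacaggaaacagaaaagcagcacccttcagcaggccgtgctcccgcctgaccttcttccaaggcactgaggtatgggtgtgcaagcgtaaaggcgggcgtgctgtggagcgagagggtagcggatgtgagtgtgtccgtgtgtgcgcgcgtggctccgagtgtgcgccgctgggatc
Ccl9: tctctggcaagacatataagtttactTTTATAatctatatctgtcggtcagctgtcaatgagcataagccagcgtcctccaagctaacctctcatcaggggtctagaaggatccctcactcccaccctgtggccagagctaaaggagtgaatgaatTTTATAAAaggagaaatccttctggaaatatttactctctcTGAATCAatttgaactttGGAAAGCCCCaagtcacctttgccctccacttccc

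The *Cxcl14* window (chr13:56296552-56296801, minus strand) held none of the motifs searched on both strands. These were the AP-1 letters TGANTCA, the SMAD letters GTCTAGAC and CAGAC, the TATA letters TATAAA and the NF-kB motif. The *Ccl9* window (chr11:83578637-83578886, minus strand) held the AP-1 letters 53 bases before the start, TATA letters at 224, 94 and 92 bases (the last pair overlapping on opposite strands), and an NF-kB match at 35 bases. The *Ccl12* window had TATA letters at 31 bases, and those of *Cxcl12*, *Ccl6* and *Ccl3* had no match. Among 32851 promoter windows, 6.75% held the AP-1 letters, 0.167% and 42.2% the longer and shorter SMAD letters, 12.4% the TATA letters, and 7.25% the NF-kB motif. These matches describe letters in a window and not bound sites.

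Genes with the most similar pattern were sought among those with a mean of at least 50, by the root mean square difference of log2 values over the 12 libraries after centering on CTRL. For *Ccl2* the nearest of 10633 genes was *Ccl7* (0.170), followed by *Ankrd55* (0.194), and for *Ccl7* the nearest was *Ccl2*. *Cxcl14* had the largest distances, with *Pald1* at 0.562 and *Cx3cr1*, the fractalkine receptor, at 0.711. This measure also grows with the spread between libraries, and *Cxcl14* ran from 4 to 63 outside Act. In Act versus CTRL the log2 fold changes were 3.69 for *Pald1* and 3.41 for *Cx3cr1*, near the 3.49 of *Cxcl14*. The nearest genes were *Cipc* (0.0452) and *Inpp4a* (0.0549) for *Ccl3*, and *Gm9949* (0.102) and *Kif5c* (0.119) for *Ccl4*. They were *Ephx1* (0.0593) and *Fggy* (0.0727) for *Ccl6*, *Rab20* (0.0620) and *Sema4a* (0.0625) for *Cxcl16*, and *Map7* (0.274) and *Inka2* (0.282) for *Cxcl12*.

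Of 28 other chemokine ligands on a fixed list, 16 were listed and 13 tested. In Act versus CTRL 3 rose, 1 fell and 9 did not pass the test, while 10.3% of all genes rose and 9.97% fell. With the replicate block *Cxcl9* was called as well, and the genes called in all went from 2896 to 4508 of 14318. *Ccl8* had 35, 19 and 11 in CTRL, 5, 4 and 3 in Act, 41, 37 and 22 in Act+FST, and 24, 29 and 18 in FST. It was lowest in every Act library, like *Ccl2* and *Ccl7*, with a log2 fold change of -2.06 (SE 0.38, adjusted p = 0.00221 by limma). *Ccl5*, an attractant of T cells and monocytes, had 68, 72 and 26 in CTRL and 148, 125 and 158 in Act, and it rose by 1.49 (SE 0.38, adjusted p = 0.0160), unlike *Ccl3* and *Ccl4*. *Cxcl2*, a neutrophil attractant, rose by 0.98 (adjusted p = 0.0160) and *Ccl22*, a ligand of CCR4, by 1.06 (adjusted p = 0.0464). Not called were *Pf4* (0.06), *Cxcl10* (0.25), *Ccl25* (0.02), *Ccl24* (-0.19), and *Ppbp* (0.24). In Act versus Act+FST *Ccl8* (-2.75, adjusted p = 0.000278) and *Cxcl2* (0.77, adjusted p = 0.0461) were called, against 21.3% of all genes. With the replicate block the count of 2 became 6, and that over all genes went from 3048 to 4663 of 14318.

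**Figure D5:**
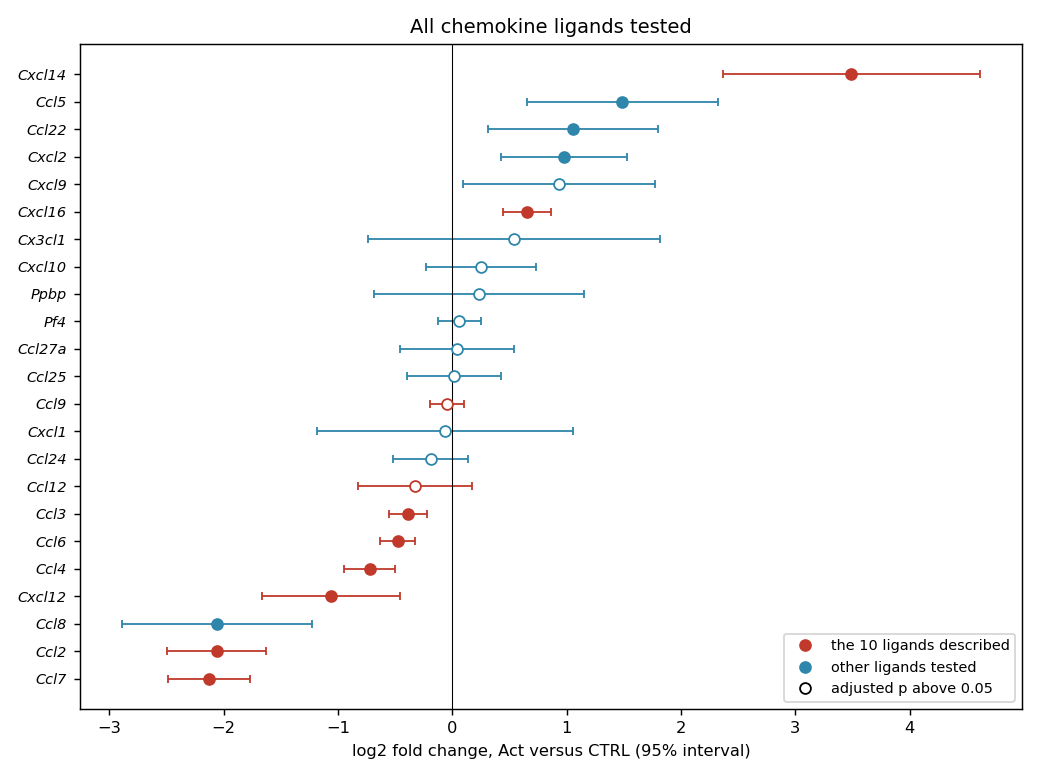
Log2 fold change of Act versus CTRL (x axis) with its 95% interval for the chemokine ligands tested (y axis), sorted by size. Red points are the 10 ligands described, blue points the 13 others, and open points have an adjusted p above 0.05. *Cxcl14* is at the top with 3.49, and *Ccl7*, *Ccl2* and *Ccl8* are at the bottom between -2.13 and -2.06.

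Of 9 chemokine receptors and related atypical receptors, 6 were listed and 5 tested. Of these, 4 rose and 1 fell in Act versus CTRL, against 10.3% and 9.97% of all genes. *Ccr2*, the receptor of CCL2 and CCL7, rose where both ligands fell. *Ccr2* had 633, 508 and 272 in CTRL, 932, 873 and 940 in Act, 765, 537 and 391 in Act+FST, and 678, 443 and 294 in FST, and it rose by 1.04 in Act versus CTRL (SE 0.33, adjusted p = 0.0425 by limma). *Ccr1* rose by 0.49 (adjusted p = 0.000919), *Cxcr4* by 0.52 (2.98e-05), and *Ccrl2*, an atypical receptor, by 0.76 (0.000623), whereas *Ccr3* fell by 1.31 (0.0309). *Cxcr6*, the receptor of CXCL16, was at 0 in all CTRL libraries and at most 4 in Act. In Act versus Act+FST, *Ccr1*, *Cxcr4* and *Ccrl2* were called, and with the replicate block all 5 were. Over all 14318 genes, 3048 were called without the block and 4663 with it.

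Among 9 enzymes known to cut or shed chemokines, 3 rose and 2 fell in Act versus CTRL, against 10.3% and 9.97% of all genes. *Adam17*, a sheddase, rose by 0.28 (adjusted p = 0.00396 by limma), and *Adam10*, the sheddase best known for CXCL16, had 0.18 (adjusted p = 0.0587). With the replicate block 5 enzymes rose, *Adam10* (adjusted p = 0.00187) and *Dpp4* (0.00117) being added. Of all 14318 genes, 1468 rose without the block and 2338 with it. *Mmp14* (2.45, adjusted p = 3.79e-06) and *Mmp2* (3.43, 2.11e-06), proteases that trim CCL7 and CXCL12, rose. *Mmp12* (-1.36, 6.70e-06) and *Elane* (-1.64, 0.0253) fell. Of 14 inflammatory signal genes, 13 were tested, of which 7 rose and 1 fell, and with the replicate block 9 rose, *Tnfaip3* and *Fos* being added. The largest was *Il1b*, at 147, 122 and 86 in CTRL and 425, 410 and 445 in Act (log2 1.87, adjusted p = 0.00258), and *Tnf* rose by 0.61 (0.0167), *Nfkbia* by 0.39 (0.00390), *Relb* by 0.31 (0.00608), and *Nfkb1* by 0.26 (0.00401), while *Jun* fell by 0.44 (0.0106).

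All 10 macrophage markers were present, with sums of 14997 to 16458 in CTRL and 14633 to 15520 in Act, and *Cd14* and *C1qa* rose while *Mrc1* fell in Act versus CTRL. Stromal cells of the marrow are a known source of CXCL12 and CXCL14. Of 12 stromal markers, 11 were listed. Their sums were 138, 71 and 63 in CTRL, 402, 109 and 102 in Act, 217, 57 and 62 in Act+FST, and 244, 56 and 66 in FST, with replicate 1 highest in each group. None of the 7 that were tested passed in Act versus CTRL by limma, and 3 rose with the replicate block, where 2338 of all 14318 genes rose. Replicates 2 and 3 alone were also compared, a choice made after the data were seen. Their stromal sums were 71 and 63 in CTRL and still higher, at 109 and 102, in Act. Most of these counts came from *Pdgfrb* (31 and 22 in CTRL, 41 and 43 in Act) and *Acta2* (24 and 29, 30 and 33). The paper reports that activin A raised *Pdgfrb* in BMDMs, and whether the sums reflect stromal cells was not tested. In the same libraries *Col1a1* had 3 and 3 in CTRL and 8 and 3 in Act. *Bgn* had 1 and 1, and 5 and 3, and *Sparc* 5 and 2, and 4 and 4. In these libraries *Cxcl14* had a log2 fold change of 3.54 (adjusted p = 0.00314 by limma) and *Cxcl12* one of -1.23 (adjusted p = 0.0394) in Act versus CTRL, while the *Cxcl12* call in Act versus Act+FST was lost (adjusted p = 0.0571). The sums of 6 monocyte markers were 1271 to 1785 in CTRL and 1900 to 2264 in Act, and those of 8 neutrophil markers 1258 to 1627 and 1002 to 1556. Of the neutrophil markers, *Elane* and *Mpo* fell and 6 did not pass the test, while 9.97% of all genes fell. The 5 listed osteoclast markers summed to 1161 to 1512 in CTRL and 651 to 850 in Act, mostly *Atp6v0d2*, and their members went opposite ways. *Atp6v0d2* (-1.04, adjusted p = 0.000105 by limma) and *Ctsk* (-1.64, 6.71e-05) fell, while *Acp5* rose by 1.18 (0.00177). The part of other cells in the ligand values was not tested.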

How the data were processed

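The authors used Trimmomatic 0.39 for trimming of single-end reads, STAR 2.7.9a for alignment to mm10, and featureCounts 2.0.2 for counting on Ensembl genes. Deposited values are a signal, namely gene counts scaled per library and rounded to whole numbers, so whole reads were not recovered, depth before scaling is unknown, and a model for counts was not used. All 12 libraries entered limma 3.58.1 (R 4.3.3, empirical Bayes with trend) on log2(value + 1) as 4 group means, for genes with a mean of at least 5, with Benjamini-Hochberg adjustment over all genes of a contrast. All tests were two-sided. Single sums were compared by exact permutation tests of 3 against 3 libraries. The model was tested on simulated data.

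The ligands and gene lists were chosen with earlier results of these data known. All 10 ligands were named. Of the lists, named were other ligands called in a comparison with Act or with a mean of at least 50, receptors with a mean of at least 5, enzymes called in Act versus CTRL, up to 6 called inflammatory signal genes, and the 2 genes nearest in pattern to each called ligand. *Adam10*, *Dpp4*, *Tnfaip3*, *Fos*, *Cxcl9*, *Cxcr6*, *Zmynd15* and the cell markers named were singled out after their values were seen. A further receptor first placed on the list is not reported here. Positions and exon lengths are from GENCODE M21, in which 17 of the 18376 genes were not found.

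The labels give the replicate numbers 1, 2 and 3 in every group. Libraries with the same number deviated from their group means together in each of 18 pairs (correlation 0.157 to 0.481), so a fit with the replicate number as a block (paired fit) was run beside the main one.

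Alternatives were pseudocounts of 0.5 and 5, no filter and a minimum mean of 50, recomputed TMM factors, quantile normalization, no trend, only the groups compared, longest transcripts, sums per kilobase, the block, and leaving out each library. Chosen after seeing the data were a correction for shared start positions, alone and with the block, the comparison of Act+FST with FST, and replicates 2 and 3 alone. The correction for shared start positions assumed that reads with the same start had been collapsed.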

Additional observations from a re-analysis of the deposited data

Results flagged for a closer look

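For 6 ligands, the difference made by activin A was not the same without and with FST288, by the interaction term in limma (n = 3 libraries in each group, adjusted p of at most 0.05). The difference without FST288 minus that with it was -2.05 on the log2 scale for *Ccl2* and -2.35 for *Ccl7*. It was -0.70 for *Ccl4*, -0.43 for *Ccl3* and -0.38 for *Ccl6*, and 0.58 for *Cxcl16*. Those of *Ccl2*, *Ccl7* and *Ccl4* passed under every alternative tried, whereas *Ccl3*, *Ccl6* and *Cxcl16* did not pass under 11, 10 and 7 of 23 alternatives. Groups of 3 libraries are too small for a test of single outlying libraries, and none was made.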

How the results depend on the processing

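With each library left out in turn, the ligands called numbered 7 to 8 in Act versus CTRL, 9 in Act versus Act+FST, and 0 in Act+FST or FST versus CTRL. The count for the interaction was 3 to 6 when libraries were left out, 3 without the trend, and 3 with replicates 2 and 3 alone, against 6. Of the single ligand results under the alternatives, 1384 stayed on their side of the threshold, 32 lost their call, 2 gained one, and 0 of those called changed direction. The summed level of all 10 ligands reversed when taken per kilobase of exon, with a log2 ratio of -0.10 in place of 0.12 in Act versus CTRL and -0.15 in place of 0.13 in Act versus Act+FST, since long and short genes then weigh differently. *Cxcl12* lost its call in Act versus Act+FST with replicates 2 and 3 alone (adjusted p = 0.0571), and it had no value with *Ccl12* at a minimum mean of 50. With the replicate block (paired fit), 8 ligands were called in Act versus CTRL, 9 in Act versus Act+FST and 6 for the interaction, as without it, while the genes called in all went from 2896 to 4508, from 3048 to 4663, and from 965 to 2337. Corrected for shared start positions, *Ccl2* had -2.16, *Cxcl14* 3.70 and *Cxcl16* 0.81 in Act versus CTRL, and no ligand changed its call in the comparisons with Act. Depth before scaling is unknown, so its part in the spread between libraries was not tested.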
